A study of Mus musculus with 3 samples.

Results

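Apoe, Lpl, Cst7, Cd9, Cd63, Axl, Clec7a and Itgax are 8 genes that are used to name disease-associated microglia, and they were followed here in single sorted microglia of young mice. They were taken by their symbols, and 7 of the 8 had a row among the 15635 genes measured in the 3 count tables. None of the 3 tables used here holds a row for Clec7a, the receptor Dectin-1. Cells were kept with more than 200 and at most 8000 detected genes and at most 10% of unique molecular identifiers (UMIs) from mitochondrial genes.

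The study compared microglia that carry human CD33, a sialic acid receptor and Alzheimer's disease susceptibility gene, as its short isoform (hCD33m) or its long isoform (hCD33M), with control microglia (labelled wild type), all from brains of mice aged 8 weeks. Each transgene sat in the Rosa26 locus behind a floxed stop and was switched on by Cre under the Cx3cr1 promoter, with GFP from the same transcript, so other Cx3cr1-expressing macrophages can carry it too. The hCD33m line came from 1 embryonic stem cell clone. Cells of a pair of mice per genotype were pooled, sorted as CD11b+CD45low and Cx3cr1+, and made into 1 library per genotype with 10x Genomics 3′ chemistry. The brains of all groups were kept cold with transcription and translation inhibitors. Whether the control mice carried Cx3cr1Cre is not given for these libraries in the sources used here, and human CD33 RNA was not analysed here.

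Microglia are the resident macrophages of the brain parenchyma. In mouse models of amyloid deposition and in ageing brains, a share of them lowers homeostatic genes such as P2ry12 and Tmem119 and raises a set known as the disease-associated microglia programme, in a course of which the later part depends on the receptor Trem2. Apoe encodes apolipoprotein E, the main lipid carrier of the brain, and Lpl encodes lipoprotein lipase, which releases fatty acids from lipoprotein triglycerides. Cst7 encodes cystatin F, an inhibitor of lysosomal cathepsins. Cd9 and Cd63 encode tetraspanins, membrane organisers of the cell surface and of late endosomes and exosomes. Axl is a receptor tyrosine kinase of the Tyro3, Axl and Mertk family for phosphatidylserine bridged by Gas6, and Itgax encodes the integrin alpha chain CD11c. Many of these genes are also carried by border associated macrophages, the macrophages of the meninges and perivascular spaces, of which Mrc1 is a marker, while Plac8 marks monocytes.

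The genes lie on several chromosomes of GRCm38 (mm10), by GENCODE M21. Apoe is at chr7:19696109-19699188 on the minus strand, Axl at chr7:25757273-25788705 on the minus strand and Itgax at chr7:128129547-128150657 on the plus strand. Lpl is at chr8:68880491-68907448, Cst7 at chr2:150570415-150578944 and Cd63 at chr10:128900989-128912822, all on the plus strand. Cd9 is at chr6:125460266-125494791 and Clec7a at chr6:129461591-129472779, both on the minus strand. The 250 bases before the RefSeq start site (GRCm38.p6) are shown for Apoe, Axl and Itgax, the members of the pairs Apoe with Axl and Axl with Itgax that were found in the same cells below. They run 5′ to 3′ on the gene's strand, with the letters GAGGAA (or TTCCTC on the other strand), the core of the PU box bound by the macrophage factor PU.1, in capitals.

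Apoe, chr7:19699189-19699438, minus strand: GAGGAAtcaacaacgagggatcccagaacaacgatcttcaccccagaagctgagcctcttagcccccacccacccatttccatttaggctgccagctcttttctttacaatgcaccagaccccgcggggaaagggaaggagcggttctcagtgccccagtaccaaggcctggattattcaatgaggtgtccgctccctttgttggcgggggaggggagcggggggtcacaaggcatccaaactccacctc
Axl, chr7:25788734-25788983, minus strand: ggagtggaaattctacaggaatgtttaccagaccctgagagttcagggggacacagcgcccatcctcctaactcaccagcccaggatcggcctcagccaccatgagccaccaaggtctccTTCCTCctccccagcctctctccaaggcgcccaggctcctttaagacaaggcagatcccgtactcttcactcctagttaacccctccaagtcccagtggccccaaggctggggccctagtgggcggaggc
Itgax, chr7:128129300-128129549, plus strand: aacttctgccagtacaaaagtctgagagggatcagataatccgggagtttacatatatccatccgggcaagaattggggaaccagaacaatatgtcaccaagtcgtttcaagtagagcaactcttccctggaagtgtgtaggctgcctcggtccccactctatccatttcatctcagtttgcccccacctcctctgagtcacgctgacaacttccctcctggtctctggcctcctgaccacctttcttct

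RefSeq promoters were matched for 7 of the 8 genes, all but Lpl. GAGGAA was in 4 of these 7 (Apoe, Cd63, Axl and Clec7a) and in 23.1% of 27025 promoters of the same length. In Apoe it began 250 bases and in Axl 130 bases before the start site, and the Itgax stretch held none. The RefSeq start of Cd63 lies 8356 bases from the GENCODE one. The letters CACGTG (E-box), searched on both strands, were in none of the 7 and in 6.05% of all promoters. A match of letters is a description of the sequence only.

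The hCD33m library held 6068 kept cells, the hCD33M library 5710 and the control library 5891, with medians of 4881, 4215.5 and 4303 UMIs per cell and 38555874, 32899506 and 31396051 UMIs in all. Microglial markers were high in all 3, with a summed level of 10 genes between 29677 and 32249 UMIs per 1000000 (CPM). Marker sums of border associated macrophages were between 118 and 199 CPM, those of monocytes between 63.1 and 98.8 CPM, and neutrophil markers stood at 64.1 CPM in hCD33m, 98.8 CPM in hCD33M and 473 CPM in control cells. Without Mrc1+ and Plac8+ cells the neutrophil sum was 70.9 CPM in hCD33m, 116 CPM in hCD33M and 2.72 CPM in control, so the order turned. Red blood cell markers summed to 0.130 CPM in hCD33m, 221 CPM in hCD33M and 0 CPM in control cells. The part of either in the differences between libraries was not tested. Barcodes shared between libraries numbered 4 to 12. The hCD33m library is labelled female and the others male, yet it held 0 Xist UMIs and 3854 UMIs of the Y-linked Ddx3y, against 3831 Ddx3y UMIs in hCD33M and 3074 in control cells, so its data go against that label. With 1 library per genotype there is no replicate and no test. The 95% intervals below cover counting error only, not the spread between cells, mice or isolations.

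Among the lipid genes, Apoe stood at 1162 CPM in hCD33m cells (95% interval 1151 to 1172), 818 CPM in hCD33M cells (808 to 828) and 1221 CPM in control cells (1209 to 1234). Lpl stood at 22.1 CPM in hCD33m cells (20.7 to 23.7), at 15.8 CPM in hCD33M cells (14.4 to 17.2) and at 26.9 CPM in control cells (25.2 to 28.8). For both genes the hCD33M library was the lowest and the control library the highest. Of the lysosomal and membrane genes, Cst7 stood at 29.2 CPM in hCD33m cells (27.5 to 30.9), at 17.5 CPM in hCD33M cells (16.1 to 19.0) and at 20.4 CPM in control cells (18.8 to 22.03). Cd9 stood at 1392, 1140 and 1319 CPM and Cd63 at 490, 435 and 452 CPM in hCD33m, hCD33M and control cells. In all 3 of these genes hCD33m was the highest and hCD33M the lowest. The receptors were scarce. Axl stood at 9.75 CPM in hCD33m cells (8.79 to 10.8), at 7.60 CPM in hCD33M cells (6.69 to 8.602) and at 9.17 CPM in control cells (8.14 to 10.3), and its hCD33m and control intervals overlapped. Itgax stood at 6.17 CPM (5.41 to 7.01), 5.44 CPM (4.67 to 6.30) and 5.06 CPM (4.31 to 5.92) in the same order, with overlapping intervals throughout. These are levels of 3′ tags and are not set against each other between genes.

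**Figure D1:**
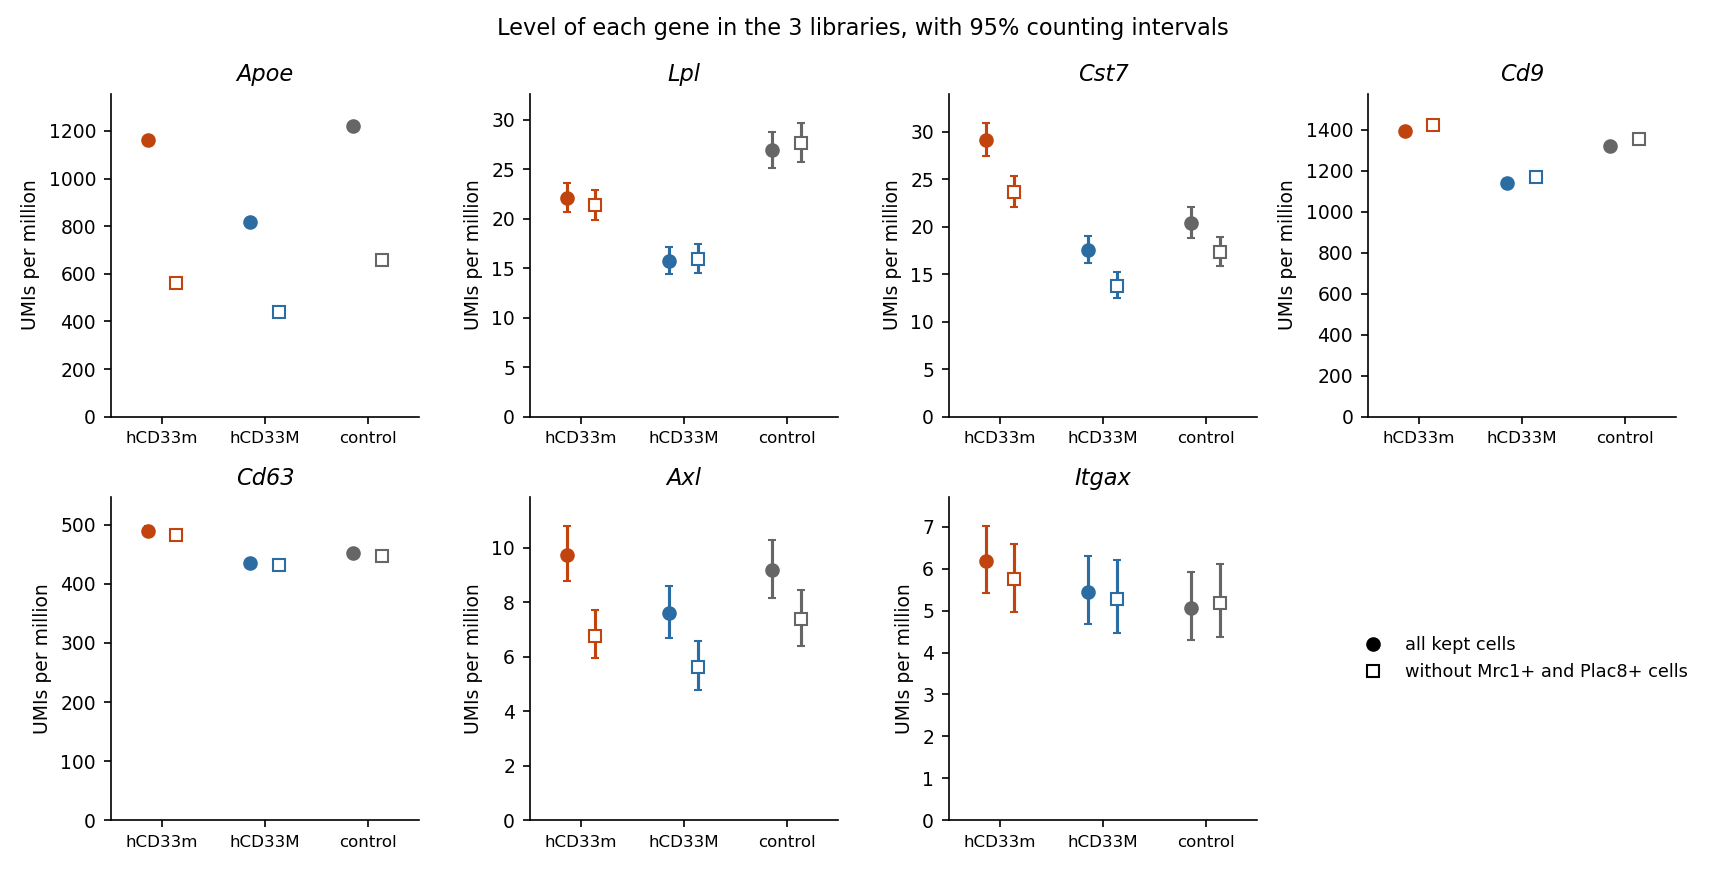
Level of each measured gene (vertical axis, CPM) in the hCD33m, hCD33M and control libraries (horizontal axis), for all kept cells (filled circles) and without cells that hold an Mrc1 or Plac8 UMI (open squares), with 95% counting intervals where they exceed the symbol. Apoe fell to 561, 441 and 659 CPM without these cells, against 1162, 818 and 1221 CPM with them, while Lpl, Cd9, Cd63 and Itgax kept close to their levels.

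To compare detection at equal depth, each cell without an Mrc1 or Plac8 UMI was thinned to 1600 UMIs, which left out 905 hCD33m, 1459 hCD33M and 1438 control cells. Cd9 was then found in 86.3% of the hCD33m cells, 81.0% of the hCD33M cells and 84.9% of the control cells, and Cd63 in 47.3%, 46.6% and 47.8%. At full depth, with these cells included, the shares were 93.6%, 88.4% and 87.5% for Cd9 and 73.9%, 68.9% and 68.4% for Cd63. Both tetraspanins were thus found in most cells of these young brains at full depth. After thinning Apoe was found in 24.2% of the hCD33m cells, 21.6% of the hCD33M cells and 25.0% of the control cells, against 41.4%, 36.1% and 38.0% at full depth. Lpl was found in 2.21%, 2.16% and 2.68%, Cst7 in 2.65%, 1.80% and 2.15%, Axl in 1.03%, 1.08% and 1.18%, and Itgax in 0.848%, 0.590% and 0.844% of thinned hCD33m, hCD33M and control cells. At full depth Lpl was found in 6.61%, 4.85% and 6.59% and Cst7 in 8.11%, 5.10% and 5.53% of cells, and Axl in 4.42%, 3.12% and 3.56% and Itgax in 2.98%, 2.19% and 2.12%.

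A few cells carried most of the Apoe RNA. Cells with an Mrc1 or Plac8 UMI made up 5.41% of the hCD33m library, 6.20% of the hCD33M library and 5.21% of the control library, and held 56.4%, 54.0% and 52.0% of all Apoe UMIs. The 216 cells of 1 border associated macrophage-like cluster (led by Pf4, Ms4a7, Cd163, Lyve1 and Mrc1) alone held 54.4% of the Apoe UMIs of the hCD33m library, 39.4% of those of hCD33M and 44.3% of those of control. Their Apoe level was 18479 CPM in 111 hCD33m cells, 16648 CPM in 46 hCD33M cells and 26907 CPM in 59 control cells. Axl was the next most concentrated, with 37.2%, 36.8% and 28.5% of its UMIs in Mrc1+ or Plac8+ cells, followed by Cst7 with 26.7%, 33.1% and 24.4%. Lpl, Cd9, Cd63 and Itgax had between 7.81% and 17.3% there. The Mrc1+ and Plac8+ cells were deeper than the rest, with medians of 8171.5 UMIs in hCD33m, 9084 in hCD33M and 7249 in control, against 4811, 4068.5 and 4189.5 in the remaining cells, so part of these shares goes with depth. The border associated macrophage-like cluster alone held 28.5%, 16.4% and 18.4% of the Axl UMIs of hCD33m, hCD33M and control. Of the Cst7 UMIs it held only 1.96%, 2.95% and 2.97%.

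Free RNA of border associated macrophages was gauged by 5 of their genes (Pf4, Ms4a7, Cd163, Lyve1 and Cbr2), which microglia-like cells should lack. Their level in microglia-like clusters was at most 0.251% of that in the border associated macrophage-like cluster in hCD33m, 0.193% in hCD33M and 0.230% in control, while that of Apoe was 2.75%, 2.86% and 2.51%. At the share of the 5 genes, Apoe would have stood at 46.3, 32.1 and 61.8 CPM, against the 508, 476 and 675 CPM measured in microglia-like cells of hCD33m, hCD33M and control. Mrc1, which was also found in the Cst7 cluster described next, stood at 0.821%, 1.06% and 0.796% of its border level, and at that share Apoe would have stood at 152, 177 and 214 CPM. The share of Apoe was above that of Mrc1 and of the 5 genes in each library. Free Apoe RNA from other cells was not gauged. The part of free RNA and of doublets in the Apoe of microglia-like cells was not tested.

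The cells were clustered with the 8 genes left out, and 13 clusters were found, of which 9 were microglia-like, 1 border associated macrophage-like, 1 monocyte-like and 2 unnamed, the unnamed ones with medians of 1052 and 720.5 UMIs. The largest microglia-like cluster, of 3544 cells with P2ry12 at 3763 CPM, held little of the scarce genes. There Axl stood at 1.53 CPM, Itgax at 2.04, Lpl at 6.85, Cst7 at 7.98 and Apoe at 265 CPM, while Cd9 stood at 1294 and Cd63 at 419 CPM, near their levels over all cells.

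Cst7 was highest in a cluster of 346 cells (149 hCD33m, 101 hCD33M and 96 control). This cluster also led in Vcam1, an endothelial and myeloid adhesion molecule, and in Cdkn1a, Hcar2, Sfi1, Ccr1 and Lyz2. It held 37.4% of Cst7 UMIs in 1.96% of cells. Cst7 was found in 70.8% of its cells (65.7% to 75.5%, Clopper-Pearson) and in 3.22% of those of the largest cluster, at medians of 5061 and 4882 UMIs. Its level there was 554 CPM (506 to 604) for the hCD33m library, 307 CPM (263 to 355) for hCD33M and 350 CPM (303 to 402) for control, and the hCD33m interval overlapped neither of the others. Apoe was found in 35.0% of these cells and in 37.2% of the largest cluster, so it was not found in a larger share of them. Cd63 at 1122 CPM, Axl at 39.1, Itgax at 22.5 and Apoe at 1683 CPM were all higher in this cluster than in the largest one, and P2ry12 was lower at 1993 CPM. A red blood cell gene, Hbb-bs, stood at 2040 CPM in this cluster, all of it 4173 UMIs of 1 hCD33M cell, without which, an alternative chosen after the data were seen, Cst7 stood at 303 CPM in hCD33M. Mrc1 was found in 32.4% of the cells, but Pf4 stood at 0.489 CPM and Ms4a7 at 1.47 CPM. Cst7 stood at 433 CPM in the 112 cells with an Mrc1 UMI and at 425 CPM in the 234 without.

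Lpl, Cd9 and Cd63 were highest in another small cluster, of 140 cells, led by the chemokine genes Ccl4 and Ccl3 with Gadd45b, Csf1 and Lgals3. It held 97 hCD33m, 13 hCD33M and 30 control cells. Lpl stood there at 399 CPM in hCD33m, 401 CPM in hCD33M and 1053 CPM in control cells, and 90 of the 180 control UMIs came from 1 cell. The cluster held 19.6% of all Lpl UMIs in 0.792% of cells. Cd9 stood at 3155 CPM over its cells, Cd63 at 1469 and Cst7 at 70.4 CPM, with P2ry12 at 1752 CPM, below the 3763 CPM of the largest cluster. Itgax stood at 30.9 CPM there and at 22.5 CPM in the Cst7 cluster, with overlapping intervals (19.98 to 45.6 and 16.5 to 29.99 CPM), and in the hCD33M library it was highest, at 25.9 CPM, in the monocyte-like cluster. The most Lpl UMIs, 25.4%, were in a cluster of 1797 cells with a median of 14962 UMIs, at 17.4 CPM, and 22.9% were in a cluster of 2270 cells led by Emp3 and Ifi27l2a, at 34.6 CPM, where Apoe stood at 1034 and Axl at 13.02 CPM. After the Ccl4 cluster, Cd9 was highest in shallow cells. It stood at 2826 CPM in the unnamed cluster with a median of 1052 UMIs. In a microglia-like cluster with a median of 1836.5 UMIs it stood at 2247 CPM.

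Axl was highest in the border associated macrophage-like cluster at 77.7 CPM, found in 46.8% of its cells at a median of 8466.5 UMIs, against 0.734% of the cells of the largest microglia-like cluster at 4882 UMIs. It was next at 39.1 CPM in the Cst7 cluster, at 32.7 CPM in the monocyte-like cluster and at 30.0 CPM in a cluster of 258 cells led by the interferon genes Rsad2, Cxcl10 and Ifit3, and the intervals of these 3 overlapped (31.0 to 48.7, 21.8 to 47.3 and 23.1 to 38.3 CPM). Apoe followed the border associated macrophage-like cluster with 3893 CPM in the 84 monocyte-like cells. The microglial gene P2ry12 stood at 2237 CPM in the border associated macrophage-like cells, against 1993 CPM in the Cst7 cluster, and Tmem119 at 1056 against 1448 CPM. A cluster is not tested against the rest.

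**Figure D2:**
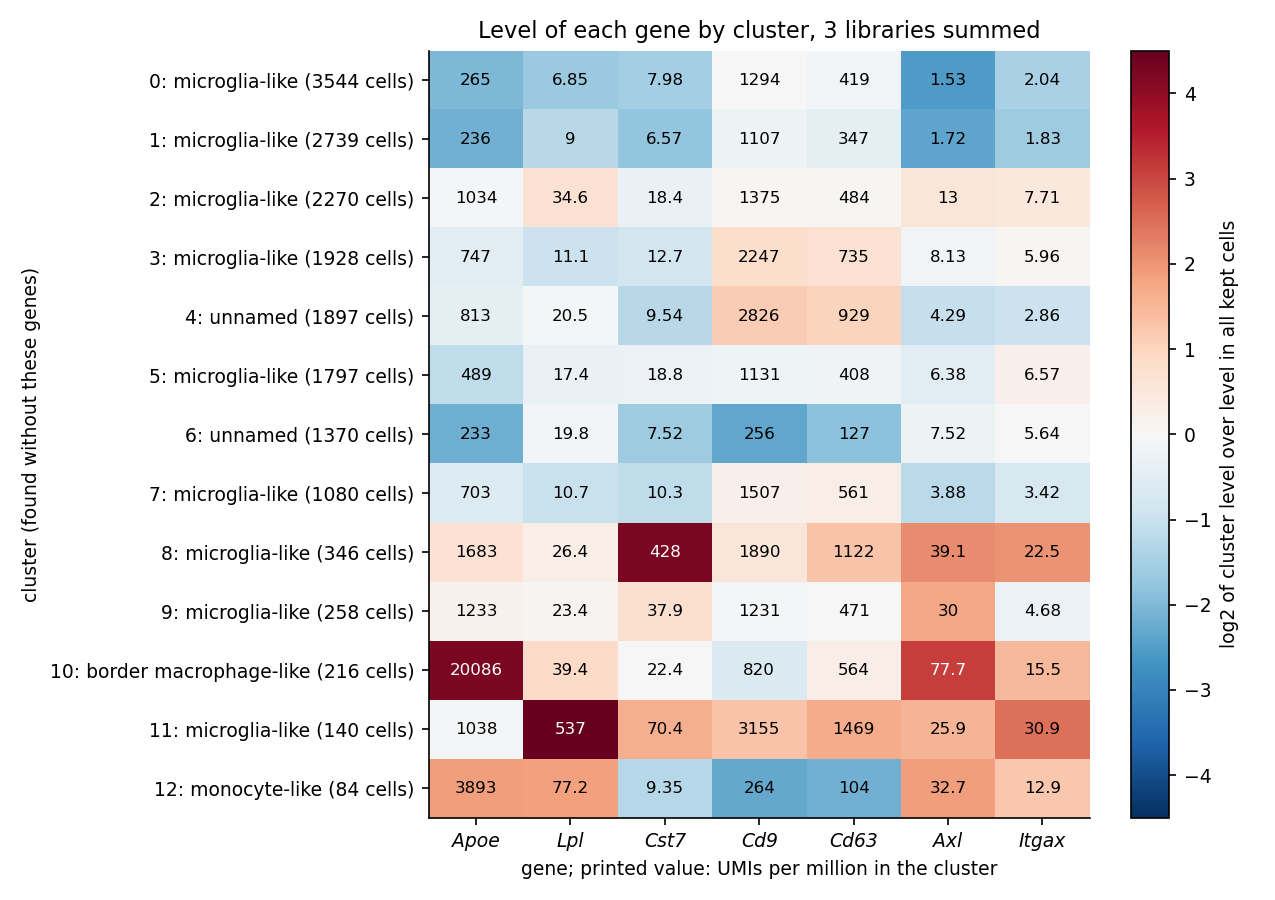
Level of each measured gene (columns) in each of 13 clusters (rows, with cell numbers), the 3 libraries summed, where the printed number is the level in CPM and the colour is the log2 of that level over the level in all kept cells. Cst7 peaks at 428 CPM in cluster 8 (the Cst7 cluster), Lpl at 537 CPM in cluster 11 (the Ccl4 cluster), and Apoe and Axl at 20086 and 77.7 CPM in the border associated macrophage-like cluster 10.

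Apoe was unevenly held within the microglia-like clusters as well. Cells with 5000 CPM or more of Apoe were 75 of 5153 in hCD33m (1.46%, 1.15% to 1.82%), 55 of 4405 in hCD33M (1.249%, 0.942% to 1.62%) and 100 of 4544 in control (2.20%, 1.79% to 2.67%). They held 38.4%, 40.8% and 54.6% of the Apoe UMIs of those clusters. Without them Apoe stood at 318 CPM in hCD33m, 285 CPM in hCD33M and 313 CPM in control cells. The boundary was set after the data were seen and cuts a continuous range, in which 33 hCD33m, 31 hCD33M and 49 control cells lay near it. At 2000 CPM the shares were 4.44%, 4.02% and 5.46%, and at 10000 CPM 0.621%, 0.590% and 1.17%. The control library was the highest at every boundary, but the boundaries cut the same cells. At each of them its interval overlapped that of hCD33m and not that of hCD33M.

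The levels of the other genes differed along this range of Apoe. Axl stood at 60.9 CPM in the cells of 5000 CPM or more of Apoe in hCD33m, 65.7 in hCD33M and 66.8 in control, against 4.66, 5.53 and 5.07 CPM in cells with no Apoe UMI. Itgax stood at 20.3, 22.9 and 22.8 CPM, against 4.66, 3.84 and 3.33 CPM in the cells without Apoe. Both receptors showed this step in each library, on 36, 23 and 41 Axl UMIs and 12, 8 and 14 Itgax UMIs. Lpl stood at 98.1 CPM in Apoe-rich hCD33m cells, 68.6 in hCD33M and 132 in control, against 18.6, 9.29 and 26.4 CPM in those without Apoe. Cst7 stood at 142, 103 and 55.4 CPM, against 33.0, 18.4 and 18.3 CPM. Cd63 stood at 985, 903 and 760 CPM, against 458, 404 and 423 CPM, and Cd9 changed least, at 1710, 1354 and 1571 CPM against 1403, 1155 and 1371 CPM. The homeostatic receptor P2ry12 was lower in the Apoe-rich cells, at 2372 CPM in hCD33m, 2555 in hCD33M and 2333 in control, against 3453, 3645 and 3555 CPM in cells without Apoe.

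Some markers of other cells differed along the same range. Among Apoe-rich cells 9 of 75 in hCD33m, 11 of 55 in hCD33M and 17 of 100 in control held an Mrc1 UMI, against 2.41%, 3.87% and 3.15% of cells without Apoe. Ms4a7 stood at 20.3, 45.7 and 47.2 CPM in them, against 388, 388 and 565 CPM in the border associated macrophage-like cluster. Of 7 astrocyte markers, Aqp4, Gja1 and Clu had 0 UMIs in the Apoe-rich cells. Slc1a3, another of the 7, stood at 178, 169 and 189 CPM in them, against 187, 227 and 227 CPM in cells without Apoe. The rest of the 7, Aldoc, Slc1a2 and Gfap, were not followed along this range. In cells of 1000 to under 5000 CPM of Apoe, Clu stood at 2.57 CPM on 20 UMIs over the 3 libraries, against 0.237 CPM in cells without Apoe. In cells without Mrc1 and Plac8 UMIs, thinned to 1600 UMIs and in microglia-like clusters, those with 10 or more Apoe UMIs (54 hCD33m, 34 hCD33M and 66 control cells) held Axl at 69.4 CPM in hCD33m, 110 CPM in hCD33M and 123 CPM in control, against 4.99, 4.36 and 4.93 CPM in cells with no Apoe UMI, on 6, 6 and 13 Axl UMIs. Ms4a7 had 0 UMIs in those cells of hCD33m and of hCD33M and stood at 66.3 CPM in control, on 7 UMIs. Itgax stood there at 57.9, 91.9 and 18.9 CPM, on 5, 5 and 2 UMIs, against 4.30, 3.53 and 4.52 CPM without Apoe. Cst7 stood at 139, 73.5 and 37.9 CPM, on 12, 4 and 4 UMIs, against 23.9, 12.9 and 17.2 CPM. In control, the Itgax intervals overlapped (2.29 to 68.4 and 2.83 to 6.84 CPM). Those of Cst7 in control overlapped too (10.3 to 97.0 and 13.8 to 21.4 CPM). At full depth without Mrc1+ and Plac8+ cells, Ms4a7 stood at 14.5 CPM in Apoe-rich hCD33m cells, 0 in hCD33M and 31.4 CPM in control, on 7, 0 and 14 UMIs, where Axl stood at 51.6, 76.1 and 73.9 CPM. Doublets were not called, so pairs of a microglia and a macrophage in 1 droplet were not removed, and their part in these levels was not tested.

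**Figure D3:**
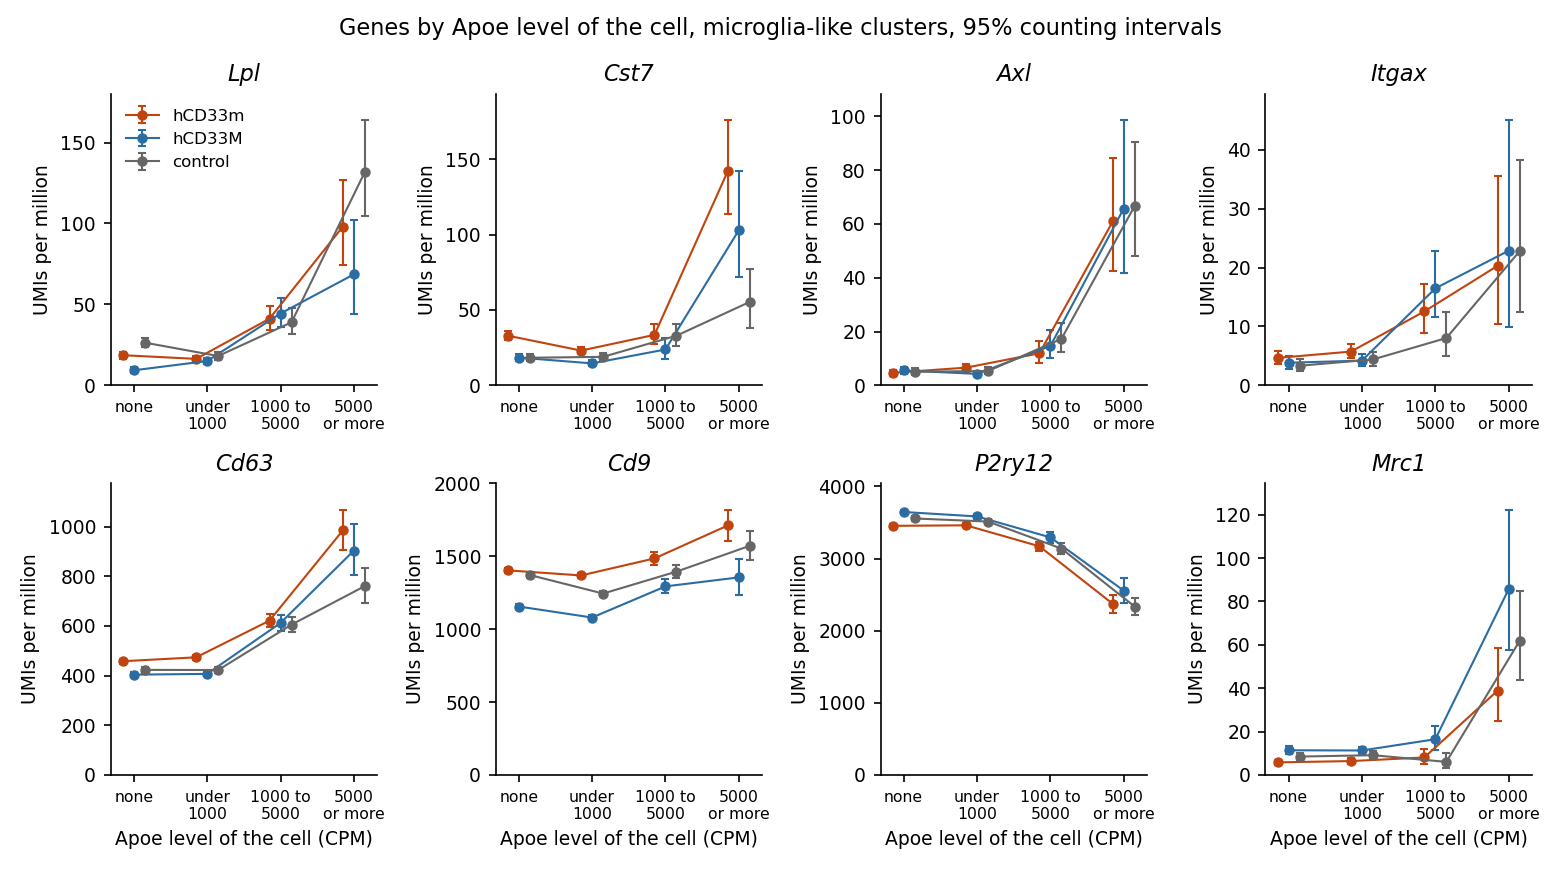
Levels of 8 genes (vertical axes, CPM, with 95% counting intervals) in microglia-like cells grouped by their own Apoe level (horizontal axis: no Apoe UMI, under 1000, 1000 to under 5000, and 5000 CPM or more), for the hCD33m, hCD33M and control libraries. Lpl, Cst7, Axl, Itgax, Cd63 and Mrc1 are highest and P2ry12 lowest in the cells of most Apoe in each library, with Axl at 60.9, 65.7 and 66.8 CPM.

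Whether the genes share cells was asked for all 21 pairs of the 7 genes, as cells holding both over the number given by the shares of each gene if they were independent. In thinned cells without Mrc1 and Plac8 UMIs, 1 of 21 pairs had a ratio of 1.5 or more and at least 10 cells in each library. It was Apoe with Axl, in 22 hCD33m cells (12.1 if independent, ratio 1.82), 23 hCD33M cells (9.09, ratio 2.53) and 27 control cells (12.2, ratio 2.21). These cells were not limited to microglia-like clusters, and both genes were highest in the border associated macrophage-like cluster. The part of its remaining cells in this pair was not tested. Thinning left few cells for the scarce genes, as 4, 3 and 6 cells held Lpl with Axl, and 4, 0 and 3 held Lpl with Cst7 (ratios of 1.41, 0 and 1.26). At full depth, with the number under independence summed over 5 bands of UMIs per cell (up to 1000, then up to 2000, 4000 and 8000, and over 8000), an alternative chosen after the data were seen, 6 of 21 pairs passed. They were all 6 pairs among Lpl, Cst7, Axl and Itgax, the 4 genes that were low in the largest cluster.

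Axl with Itgax was found in 26 hCD33m cells against 8.77 if independent (2.96, 1.94 to 4.34), 19 hCD33M cells against 5.05 (3.76, 2.26 to 5.87) and 17 control cells against 6.24 (2.73, 1.59 to 4.37). Lpl with Axl was found in 63, 28 and 43 cells, at ratios of 3.17, 2.78 and 2.41. Cst7 with Axl was found in 49, 31 and 37 cells, at 2.33, 3.33 and 2.96. Lpl with Cst7, whose clusters differ, had the lowest ratios of the 6, at 1.66 in hCD33m, 1.76 in hCD33M and 1.55 in control cells. Within the band between 4000 and 8000 UMIs alone and with libraries summed, the 6 ratios lay between 1.84 (Lpl with Cst7) and 4.63 (Axl with Itgax). By library, Lpl with Cst7 had there a ratio of 1.34 in hCD33m (0.667 to 2.39), 1.88 in hCD33M (0.810 to 3.70) and 2.46 in control (1.40 to 3.99), and the first 2 intervals included 1. Bands are wide, and a spread of depth within them also raises such ratios. Pairs with Cd9, which most cells hold, lay between 0.988 and 1.03, and Apoe with Axl at full depth between 1.28 and 1.36.

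**Figure D4:**
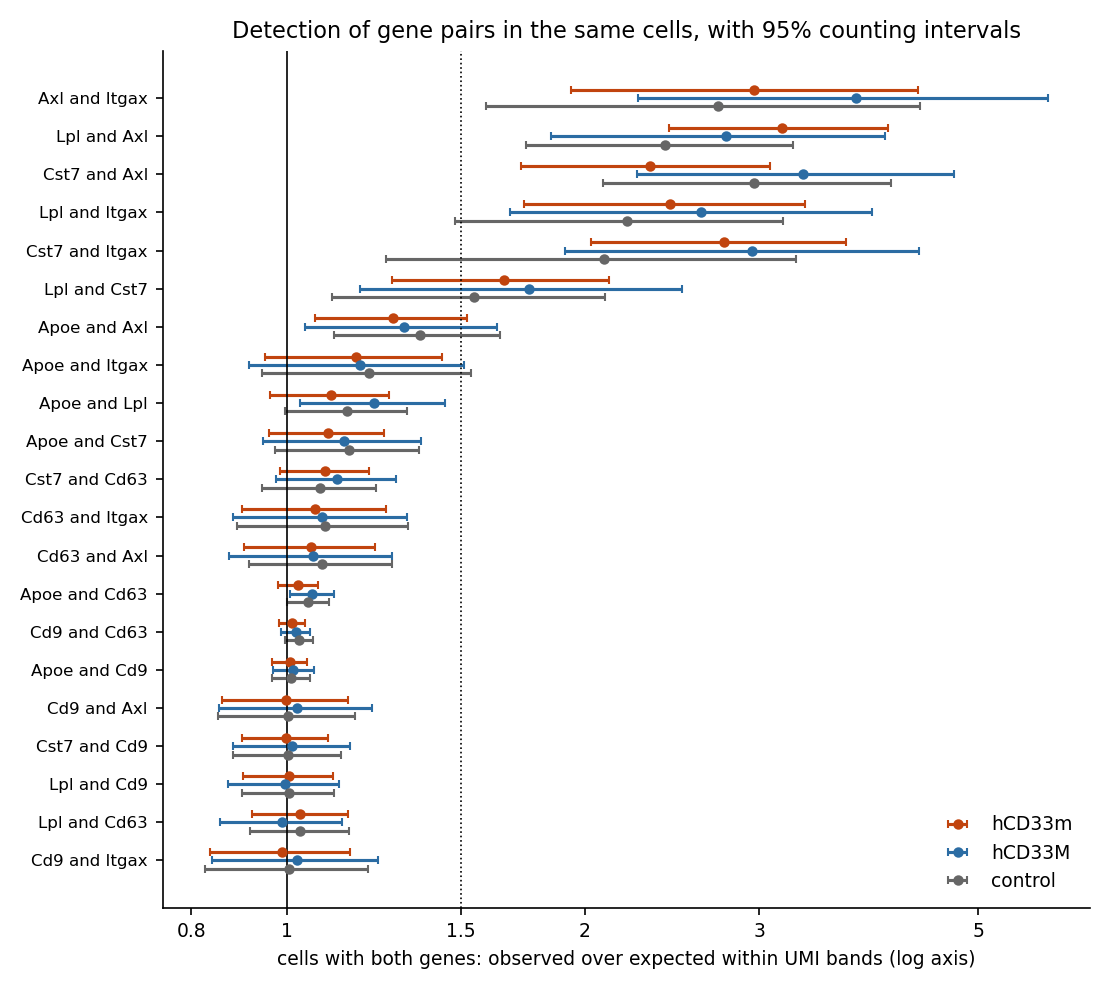
Ratio of cells that hold both genes of a pair to the number if independent, summed over UMI bands (horizontal axis, log scale), for 21 pairs in the hCD33m, hCD33M and control libraries without Mrc1+ and Plac8+ cells, with 95% counting intervals, a solid line at 1 and a dotted line at 1.5. The 6 pairs among Lpl, Cst7, Axl and Itgax lie at 1.55 or higher in each library, and pairs with Cd9 lie near 1.

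Cells that held several of these 4 genes were few. After thinning, at least 1 was held by 6.29% of 4835 cells in hCD33m, 5.23% of 3897 cells in hCD33M and 6.42% of 4146 cells in control. At least 2 were held by 21 hCD33m cells against 7.53 if independent (0.434%, 0.269% to 0.663%), 13 hCD33M cells against 4.26 (0.334%, 0.178% to 0.570%) and 15 control cells against 6.71 (0.362%, 0.203% to 0.596%). At least 3 were held by 1, 2 and 3 cells, or 0.0207%, 0.0513% and 0.0724%. The counting intervals of the 3 libraries overlapped for each of these shares. With 1 library per genotype this does not show that the shares are alike.

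The more of the 4 genes a thinned cell held, the more Apoe and Cd63 and the less P2ry12 it held. Apoe stood at 5298 CPM in cells with at least 2 of them in hCD33m, 12260 in hCD33M and 5667 in control, against 406, 356 and 477 CPM in cells with none. Cd63 stood at 1458, 1635 and 1583 CPM, against 467, 441 and 471 CPM in cells with none. P2ry12 stood at 1518, 1346 and 1583 CPM, against 3504, 3841 and 3663 CPM. Trem2, the receptor on which the later part of the programme depends, stood at 3571, 3413 and 3708 CPM, against 2647, 2586 and 2727 CPM. The groups of at least 2 genes rest on 13 to 21 cells. The Cst7 cluster held between 19.0% and 38.5% of them and the Emp3 cluster at most 28.6%, so neither held most of them in any library. The border associated macrophage-like cluster held 0% of them in hCD33m, 7.69% in hCD33M and 6.67% in control. In microglia-like clusters alone, 21, 11 and 14 cells held at least 2 genes, with Apoe at 5298, 9545 and 4018 CPM. Cells with none stood there at 364, 338 and 476 CPM of Apoe.

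The genes most often found in the same thinned cells as each member, ranked by the lowest of the 3 libraries' odds ratios among 7512 genes, differed between members. Cd74, the invariant chain of class II antigen presentation, ranked first for Apoe (odds ratio at least 1.57), Lpl (3.43) and Axl (7.10). This rested on 12, 5 and 14 cells for Lpl and on 9, 7 and 11 cells for Axl. The thinned cells lacked Mrc1 and Plac8 UMIs but were not limited to microglia-like clusters. The class II genes H2-Eb1, H2-Aa and H2-Ab1 were among the leading genes of the border associated macrophage-like cluster. The part of its remaining cells in these ranks was not tested. Apoe was followed by Ank and Ly9, Lpl by Ccl3 (3.06) and Capg, and Axl by the interferon gene Ifitm3 (4.93) and Gpr65. Cst7 was found with Sfi1 (3.31), the lysozyme gene Lyz2 (3.21) and Rap2b. Cd9 was found with the complement genes C1qa, C1qc and C1qb, which nearly all cells hold, and Cd63 with Ctsd, C1qa and Ctsz. For Itgax the first 3 genes, B3galnt2, Glipr1 and Prkaa1, rested on 1 to 4 cells per library and carry little weight.

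Between libraries, Lpl and Cst7 were the only members called, each in 1 comparison. A gene was called higher or lower when its level differed by at least 1.5-fold (0.58 on the log2 scale) with a counting interval that left out no change, among genes of 20 CPM or more in either library. That left out Axl and Itgax, so over all kept cells the members counted were Apoe, Lpl, Cst7, Cd9 and Cd63 only. Against control, hCD33m had 0 members called higher and 0 lower, where 0.868% of 6798 genes were called higher and 0.397% lower. For hCD33M against control 0 members were called higher and 1, Lpl, lower, where 0.633% of all genes were higher and 0.441% lower. For hCD33m against hCD33M 1 member, Cst7, was called higher and 0 lower, where 0.561% of 6779 genes were higher and 0.251% lower. Without Mrc1+ and Plac8+ cells the same calls were made, Lpl and Cst7. Of all genes 0.898% were then called higher and 0.368% lower in hCD33m against control, 0.649% higher and 0.324% lower in hCD33M against control, and 0.517% higher and 0.237% lower in hCD33m against hCD33M. The comparisons with control share the control library.

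Lpl was 0.77 lower on the log2 scale in hCD33M than in control cells (log2 ratio -0.77, -0.93 to -0.61), and -0.79 without Mrc1+ and Plac8+ cells. It was below control in 4 of 5 UMI bands, with log2 ratios of -1.43, -0.85 and -0.82 in the bands above 2000 UMIs and 0.21 between 1000 and 2000 UMIs. Between 4000 and 8000 UMIs it was -0.44 without the top Lpl cell of each library. Without the 1 cell of most Lpl in each library the ratio was -0.68, and without the Ccl4 cluster, of which hCD33M had 0.228% and control 0.509% of cells, it was -0.52 and no longer called. In hCD33m against control the ratio was -0.28, and -0.37 without Mrc1+ and Plac8+ cells, with all 5 bands below 0.

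Cst7 was higher in hCD33m than in hCD33M cells by a log2 ratio of 0.73 (0.59 to 0.88), and 0.78 without Mrc1+ and Plac8+ cells. The ratio was 0.88, 0.63 and 0.85 in the bands above 2000 UMIs. In the bands below, 1 to 8 UMIs per library left the sign undecided. Without the Cst7 cluster the ratio was 0.41 and was no longer called. Against control, Cst7 was 0.52 higher in hCD33m and had a log2 ratio of -0.22 in hCD33M, neither called.

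Apoe depended on which cells were counted. Over all kept cells its log2 ratio was -0.07 in hCD33m over control, -0.579 in hCD33M over control, just short of the limit of 0.585, and 0.51 for hCD33m against hCD33M. In microglia-like clusters the ratios were -0.41, -0.50 and 0.09. The border associated macrophage-like cluster made up 1.83% of the hCD33m library, 0.806% of the hCD33M library and 1.00% of the control library, and its part in the difference over all cells was not tested. Without Mrc1+ and Plac8+ cells hCD33m against hCD33M was 0.35 in all, but it was below 0 in 4 of 5 bands (-0.40 to -0.17) and 1.02 in cells of over 8000 UMIs, where Apoe stood at 692 CPM in hCD33m, 341 CPM in hCD33M and 740 CPM in control. In microglia-like clusters that band gave 0.48. Between 2000 and 4000 UMIs, without Mrc1+ and Plac8+ cells, Apoe stood at 498 CPM in hCD33m, 560 in hCD33M and 1314 CPM in control cells, of which 1 control cell held 1128 of 3614 UMIs. Without the top cell of each library the 2 ratios against control in this band were -1.01 and -0.97, against -1.40 and -1.23 with it. Against control, hCD33m was below 0 in 5 of 5 bands without Mrc1+ and Plac8+ cells (-1.40 to -0.04, with 4 of 5 intervals below 0), while hCD33M lay between -1.23 and 0.19, above 0 in 3 bands. As such a small number of cells decides the sum, the counting intervals of Apoe leave out the spread between cells.

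Cd9 was above hCD33M in hCD33m cells in 5 of 5 bands, without Mrc1+ and Plac8+ cells, at log2 ratios of 0.15 to 0.62 and 0.28 in all. Cd63 was 0.16 higher in hCD33m than in hCD33M, 0.11 higher than in control, and had a log2 ratio of -0.05 in hCD33M against control. Over all bands together both were under the limit in each comparison, while among cells of up to 1000 UMIs Cd9 was called higher in hCD33m than in control (0.87) and than in hCD33M (0.62), and Cd63 higher than in control (0.60). Axl and Itgax, under 20 CPM, had log2 ratios between -0.39 and 0.27 without Mrc1+ and Plac8+ cells, where each interval included 0 but for Axl in hCD33M against control (-0.39, -0.70 to -0.08).

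**Figure D5:**
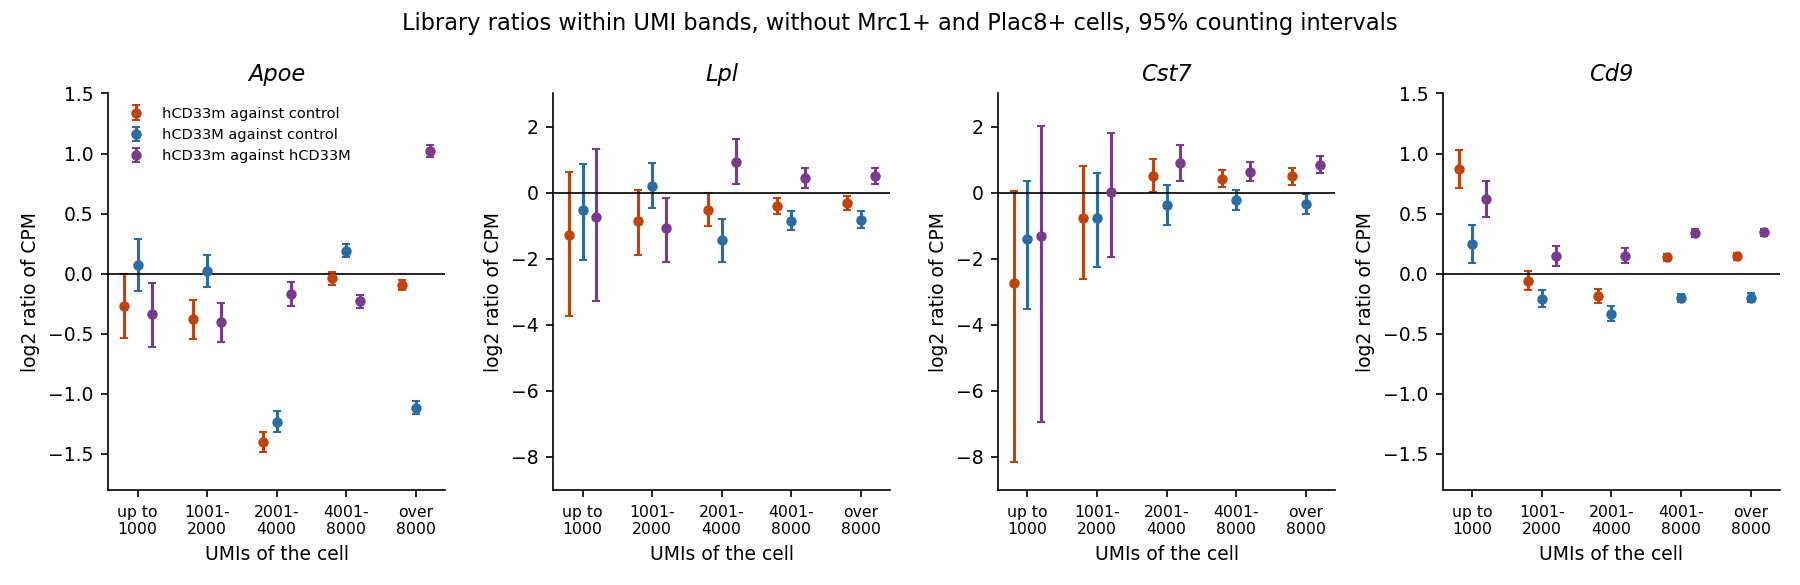
Log2 ratio of levels between libraries (vertical axis) for Apoe, Lpl, Cst7 and Cd9 within bands of UMIs per cell (horizontal axis), without Mrc1+ and Plac8+ cells, for each transgenic library against control and for hCD33m against hCD33M, with 95% counting intervals. Lpl in hCD33M lies below control in 4 of 5 bands, Cst7 in hCD33m lies above hCD33M in the 3 bands above 2000 UMIs, and Apoe in hCD33m lies below control in 5 of 5 bands but changes sign between bands in both comparisons with hCD33M, with 1.02 for hCD33m against hCD33M in cells of over 8000 UMIs.

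Of 32 further disease-associated genes, such as Trem2, Tyrobp, Ctsb, Ctsd and Spp1, 26 reached 20 CPM in hCD33m against control, where 2 were called higher and 0 lower, with a median log2 ratio of 0.02 against 0.01 over all genes. These 2 were the chemokines Ccl3 (90.7 CPM in hCD33m, 41.5 CPM in control, log2 ratio 1.13) and Ccl4 (98.5 and 47.1 CPM, 1.07). In hCD33M against control 0 of 25 were called higher and 2, again Ccl3 (-0.61) and Ccl4 (-0.86), lower, with a median of -0.11. In hCD33m against hCD33M 4 of 25 were called higher, with Ccl6 (0.70) and Lgals3 (1.19) beside them, and a median of 0.08. Of all genes 0.868% were called higher in hCD33m against control, 0.441% lower in hCD33M against control and 0.561% higher in hCD33m against hCD33M. Without Mrc1+ and Plac8+ cells Ccl3, Ccl4 and Ccl6 were called there and Lgals3 was not. None of 13 measured lipid handling genes, 11 tetraspanins, 3 genes of the Tyro3, Axl and Mertk family and its ligands, 7 integrins, 8 genes of Clec7a signalling and 6 genes of cystatins and their targets was called in hCD33m against control, and the same lists had 0 calls in the other comparisons.

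Other gene groups differed between the libraries at the same time. Immediate early genes summed to 7377 CPM in hCD33m, 5129 CPM in hCD33M and 2784 CPM in control cells, with 11 and 9 of 12 called higher than control. Homeostatic genes summed to 35166, 38371 and 38222 CPM, with 0 of 15 called. Of the 7 genes only Itgax, whose intervals overlapped, had the same order of libraries as the immediate early sum. The part of these groups in the differences of the 7 genes was not tested.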

How the data were processed

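Single-cell RNA-seq was made by the authors with 10x Genomics 3′ chemistry, aligned to mm10 with Cell Ranger and imported into Seurat, and the deposited tables hold raw UMI counts of genes found in at least 3 cells. The 8 members, the gene lists and the alternatives were chosen with earlier results of these data known. Cells with more than 200 and at most 8000 genes and at most 10% mitochondrial UMIs were kept. Levels are UMI sums scaled to 1000000, with exact Poisson intervals, shares have Clopper-Pearson intervals and ratios conditional binomial intervals, all at 95%. Cells were clustered with scanpy 1.11.5 (2000 variable genes without the members, 15 components, 20 neighbours, Leiden resolution 0.8), and clusters were named from marker lists. Doublets were not called. Detection was compared in cells thinned to 1600 UMIs. Scripts were tested on simulated data. Named genes were the members, the called genes of each list and the 3 genes most often found with each member. In all, 27 alternatives were tried, and 9 more, including the Apoe bands, were chosen after seeing the data, with edgeR 4.0.16 (TMM) and DESeq2 1.42.0 used for scaling factors only. The letters of the PU box were shortened after a longer form had been searched. The second experiment of the study was not analysed here.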

Additional observations from a re-analysis of the deposited data

How the results depend on the processing

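No paired analysis was possible because each group had 1 library. None of the called log2 ratios changed sign. Members called lower in hCD33M against control numbered 1, and 2 with at least 2000 UMIs per cell, without cells of 2 or more Mrc1 or Plac8 UMIs or at a lower fold limit, and 0 at a minimum of 50 CPM, at a fold of 2 or without the Ccl4 cluster. Members called higher in hCD33m against hCD33M numbered 1, and 3 at a lower fold limit, and 0 for the mean over UMI bands, at 50 CPM, at a fold of 2 or without the Cst7 cluster. Members called higher in hCD33m against control numbered 0, and 1 in thinned cells or at that lower fold limit. Over 16 alternatives the log2 ratio of Lpl in hCD33M against control lay between -0.84 and -0.52, that of Cst7 in hCD33m against hCD33M between 0.11 and 0.83, and that of Apoe in hCD33m against hCD33M between 0.07 and 0.51. The mean over UMI bands gave no value for Itgax in the comparisons of hCD33m. Pairs found together numbered 1, and 2 when thinned to 1000 UMIs or with Mrc1+ and Plac8+ cells, 3 in microglia-like clusters, 4 at a lower ratio limit, 0 at a ratio of 2 and 6 at full depth within UMI bands. Cells with 3 or more of Lpl, Cst7, Axl and Itgax were 0.163% of hCD33m cells thinned to 3000 UMIs, 0% of hCD33m cells at no more than 5% mitochondrial UMIs and 0% of control cells thinned to 1000 UMIs, and cells with at least 2 were 0.434% in hCD33m, 0.334% in hCD33M and 0.362% in control. The share of a gene's UMIs in its highest cluster outside border associated macrophages and monocytes was 3.63% for Apoe, 33.6% for Cst7, 1.75% for Cd9 and 2.29% for Cd63 at resolution 0.4, and 4.60% for Apoe at resolution 1.2. With the members kept among the variable genes it was 5.30% for Apoe, 25.2% for Lpl, 52.2% for Cst7, 5.47% for Axl and 10.1% for Itgax. Depth limited Axl and Itgax, which had 159 to 376 UMIs per library.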
